A study of Homo sapiens with 90 samples.

Results

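HepaRG cells of 3 independently handled batches were compared with each other at low chemical concentrations, between which at most 1 gene differed. HepaRG is a human hepatic cell line that grows into a mixture of hepatocyte-like and biliary-like cells, and it is used as a stand-in for hepatocytes in toxicology. The cells were thawed, plated and exposed for 24 h in 0.2% DMSO to the triazole fungicide fenbuconazole, to imazalil, which is also a fungicide, or to the herbicide 2,4-D. RNA was measured on Affymetrix arrays of the HT HG-U133+ PM type, and the ones compared here are those of fenbuconazole and imazalil at the 6 lowest of 9 concentrations, 0.001 to 0.3 µM in steps of about 3-fold, 36 of the 90 columns of the series. Each chemical contributed 18 arrays, 6 in batch 1, 6 in batch 2 and 6 in batch 3, 1 at each concentration. The replicate number in the title gave the batch, and for these chemicals it was the same as the P code in the sample description. All groups shared the line, the medium, the DMSO vehicle and the exposure time, and no batch was free of chemical apart from 1 DMSO array per batch. Each chemical's arrays had been normalized apart from the other's, so each set was fitted alone, with concentration as a block. A gene was counted as differing between batches when the moderated F test over the 3 batches passed an adjusted p of 0.05 in both sets and its largest batch difference had the same sign in both.

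By this rule 142 of 19774 genes differed between batches in both sets. Of these, 113 were higher and 29 lower in batch 1 by their largest difference, and in none was batch 2 the one apart. In 140 of the 142 batch 1 had that direction against both other batches in both sets, the exceptions being ATAD2 and PDE3B. The genes higher in batch 1 were led by EGR1, MAFF, DUSP6, DUSP5, CCL20, SIK1, GDF15, NR0B2 and IER2, with mean levels 3.92-fold to 2.79-fold those of batch 2. The genes lower in batch 1 were led by ZNF567, DDIT4, ZKSCAN4 and PPP1R3C, with levels in batch 2 1.7-fold to 1.56-fold those of batch 1. ZNF567 was dim, with batch 1 medians of 3.43 and 3.35 in the fenbuconazole and imazalil sets. The median probe set lay at 2.82, and no other probe set of ZNF567 passed in either set. The 17 measured plasma protein genes of hepatocytes, albumin among them, held no gene that passed in both sets.

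The list of immediate early genes held 10 of the 113 genes higher in batch 1. Immediate early genes encode transcription factors such as EGR1 and the AP-1 proteins FOS and JUN, and they are switched on within minutes of a growth factor, cytokine, stress or change of medium without new protein synthesis. The kinase cascade that ends in ERK and the NF-kB pathway are the usual routes to them. Their products are short-lived and are followed by feedback inhibitors, such as the phosphatases of the DUSP family and the NF-kB inhibitors NFKBIA and TNFAIP3, which end the signal. In liver cells the same genes are known to move during isolation, plating and regeneration.

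The differences that passed were those of batch 1 from the other batches. In each set fitted alone, 266 genes passed the F test in the fenbuconazole set (1.35% of 19774) and 241 in the imazalil set (1.22%), and 142 passed in both (0.718%). Batch 1 minus batch 2 passed in both sets with the same sign for 114 genes, 100 of them higher in batch 1 (0.506% of all genes) and 14 lower (0.0708%). Batch 1 minus batch 3 passed for 160 genes, 118 higher (0.597%) and 42 lower (0.212%). Batch 2 minus batch 3 passed for 0 genes in limma in either set, with 1685 genes in the fenbuconazole set and 1071 in the imazalil set at an unadjusted p under 0.05. Without any difference a share of 0.05 of the 19774 genes would lie there on average. The fenbuconazole count was well above that share and the imazalil count slightly. There were 103 genes past the threshold against both batch 2 and batch 3, 93 higher and 10 lower in batch 1. The differences measured in both sets can be read against each other because they come from different wells. Across the 19774 genes, which are not independent, the differences of the fenbuconazole and imazalil sets correlated at r = 0.55 for batch 1 minus batch 2, 0.60 for batch 1 minus batch 3 and 0.10 for batch 2 minus batch 3. Each array's deviation from its concentration mean was also set against the mean deviations of the batches in the other set. In the fenbuconazole set it correlated best with its own batch for 6, 4 and 5 of the 6 arrays of batches 1, 2 and 3, and in the imazalil set for 6, 3 and 4. Every array of batches 2 and 3 correlated negatively with the batch 1 mean, so their best match lay between batches 2 and 3. Counts of 3 or 4 of 6 are close to an even split between these.

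**Figure D1:**
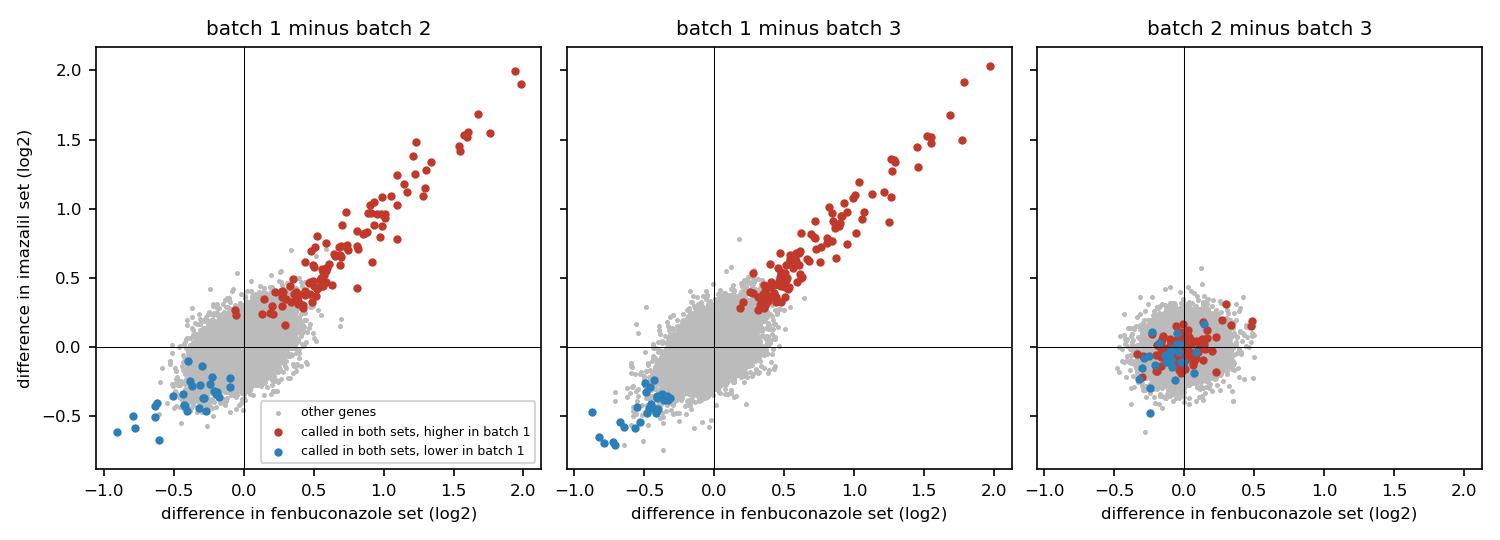
Difference between batches of every gene in the fenbuconazole set (x axis, log2) and the imazalil set (y axis, log2), for the 3 pairs of batches, 1 point per gene, with the 113 genes higher and the 29 genes lower in batch 1 coloured. The coloured genes spread along the diagonal up to about 2 log2 units in both pairs that hold batch 1 and lie among the other genes for batch 2 minus batch 3, where no gene passed in both sets.

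The wells of a batch held 1 batch of cells, so the p-values measure the spread between wells and arrays of a batch, and 1 batch of cells against another is a sample of 1 each. The sample codes of the descriptions run batch by batch, and the cells, the plate, the RNA work and the array run of a batch cannot be told apart. The poly-A spikes, bacterial transcripts added to the RNA before labelling, measured part of that work. Their mean level over 12 probe sets was 5.44 ± 0.19, 5.44 ± 0.24 and 5.19 ± 0.22 (SD, n = 6 arrays each) in batches 1, 2 and 3 of the fenbuconazole set. In the imazalil set it was 5.51 ± 0.15, 5.05 ± 0.16 and 5.07 ± 0.12, so it was high in batch 1 there, and 4 of the 12 probe sets passed the F test in that set against 0 in the fenbuconazole set. With the mean spike level of each array as a covariate, 34 genes remained called in both sets, all among the 142 and all higher in batch 1, while 0 of the 29 lower genes remained. In the imazalil set the spike level ran over 5.295 to 5.682 in batch 1, 4.743 to 5.198 in batch 2 and 4.966 to 5.289 in batch 3. Batch 1 did not overlap the others there, so a call lost in that set cannot tell the spike level from the batch. Among the named genes DUSP6, CCL2, CCN1, PER1, SGK1, SOX9, DDIT4, PPP1R3C and TSC22D3 were among those that lost the call, all with their direction kept. Fitted differences remained, some of them smaller and some larger. With and without the covariate, batch 1 minus batch 3 was -0.79 and -0.67 for ZNF786. HHEX had -0.58 and -0.53 and IRS2 0.46 and 0.41, in the same order. CCN1 had 0.92 with the covariate and 0.93 without it, PER1 0.77 and 0.77, and CCL2 0.86 and 0.97 for batch 1 minus batch 2, while DDIT4 had -0.69 and -0.74 and PPP1R3C -0.56 and -0.71 for batch 1 minus batch 3. This alternative was added after the data were seen, and the part of the spike level in the batch differences was not tested further. The 3′ minus 5′ level of GAPDH, a sign of RNA length, averaged -0.24, -0.24 and -0.20 in batches 1, 2 and 3 of the fenbuconazole set and -0.27, -0.19 and -0.21 in the imazalil set. The same measure of ACTB was highest in batch 1 in both sets, at 0.38 ± 0.12, 0.25 ± 0.091 and 0.30 ± 0.052 (SD, n = 6) in the fenbuconazole set and 0.40 ± 0.076, 0.29 ± 0.10 and 0.33 ± 0.088 in the imazalil set, with ranges that overlapped between batches. The hybridisation controls averaged 10.00, 9.85 and 9.80 in batches 1, 2 and 3 of the fenbuconazole set and 9.77, 9.78 and 9.80 in the imazalil set. The part of these measures in the batch differences was not tested. Array medians lay between 2.81 and 2.97 over all 90 columns.

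EGR1, a zinc finger transcription factor and an emblem of the immediate early response, separated batch 1 from the others without overlap. EGR1 lay at 9.74 to 9.98 (median 9.84) in batch 1, 7.64 to 8.06 (median 7.84) in batch 2 and 7.84 to 8.30 (median 8.03) in batch 3 of the fenbuconazole set. EGR1 on the imazalil arrays lay at 9.51 to 9.92 (median 9.80) in batch 1, 7.78 to 7.94 (median 7.84) in batch 2 and 7.77 to 7.88 (median 7.85) in batch 3. Every array of batch 1 lay above every array of the other batches, by more than 1 log2 unit. For EGR1, batch 1 minus batch 2 was 1.98 ± 0.087 (SE) in the fenbuconazole set and 1.90 ± 0.066 in the imazalil set, with adjusted p of the F test 3.5e-09 and 4.81e-11 in the fenbuconazole and imazalil sets. Against batch 3 the differences were 1.79 and 1.92.

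MAFF, a small MAF protein that pairs with other bZIP factors, had the largest mean difference of the 142 genes. MAFF lay at 7.23 to 7.66 (median 7.41) in batch 1, 5.17 to 5.80 (median 5.56) in batch 2 and 4.97 to 5.72 (median 5.57) in batch 3 of the fenbuconazole set. MAFF on the imazalil arrays lay at 7.40 to 7.61 (median 7.56) in batch 1, 5.17 to 5.74 (median 5.58) in batch 2 and 5.08 to 5.74 (median 5.55) in batch 3. The arrays of batch 1 stood alone, while those of batches 2 and 3 overlapped. For MAFF, batch 1 minus batch 2 was 1.94 ± 0.11 (SE) in the fenbuconazole set and 2.00 ± 0.085 in the imazalil set, with adjusted p of the F test 1.99e-08 and 2.06e-10 in the fenbuconazole and imazalil sets.

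IER2, a nuclear protein of the immediate early class, was bright in all batches and still differed. IER2 lay at 9.59 to 9.74 (median 9.68) in batch 1, 7.96 to 8.29 (median 8.13) in batch 2 and 7.92 to 8.46 (median 8.23) in batch 3 of the fenbuconazole set. IER2 on the imazalil arrays lay at 9.31 to 9.74 (median 9.54) in batch 1, 8.03 to 8.23 (median 8.12) in batch 2 and 7.91 to 8.21 (median 8.08) in batch 3. No array of batch 2 or 3 reached the lowest array of batch 1. The adjusted p of IER2 was 3.5e-09 in the fenbuconazole set and 5.73e-10 in the imazalil set.

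The list of immediate early genes held 15 measured genes, of which 10 passed in both sets, all higher in batch 1, beside 0.718% of all genes. The list's median difference was 0.73 for batch 1 minus batch 2 and 0.65 for batch 1 minus batch 3, and that of all genes was -0.0023 and -0.0024. Where a gene is given with a pair of values here and further on, they are log2 differences averaged over both sets, batch 1 minus batch 2 first and batch 1 minus batch 3 second. They were 1.29 and 1.32 for ATF3, a stress-induced repressor. They were 1.18 and 1.08 for FOS and 1.04 and 1.04 for JUN, the founding partners of AP-1. IER3, which modulates ERK signalling and survival, had 1.22 and 1.12, and KLF6, a Kruppel-like factor, 1.06 and 1.03. MYC, a growth regulator, had 0.73 and 0.65, JUNB 0.56 and 0.39, and DUSP1, a phosphatase of p38 and JNK, 0.33 and 0.29. The other 5 listed genes, FOSB, EGR3, KLF4, ZFP36 and NR4A1, had batch 1 minus batch 2 between 0.065 and 0.40 without passing in both sets, and FOSB and EGR3 were dim. JUNB passed against batch 2 in both sets but not against batch 3.

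In the family of AP-1 and small MAF genes, chosen after values had been seen, 7 of 14 measured genes passed, all higher in batch 1. FOS, JUN, JUNB and ATF3 among them are also on the immediate early list. Batch 1 minus batch 2 was positive for 9 of the 14 and batch 1 minus batch 3 for 11. FOSL1 had 0.82 and 0.76 and JUND 0.34 and 0.33, whereas FOSL2 had -0.020 and -0.047 and MAFG 0.047 and 0.083. Of 17 Kruppel-like factors, 5 passed, KLF6, KLF10, KLF11, KLF5 and KLF7, with batch 1 minus batch 2 between 0.34 and 1.06. Other transcription regulators higher in batch 1 were CSRNP1, a nuclear protein induced by AXIN1 (1.29 and 1.27), BHLHE40, a repressor in the clock and hypoxia responses (1.16 and 1.05), and HES1, a repressor downstream of Notch (1.17 and 1.12).

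**Figure D2:**
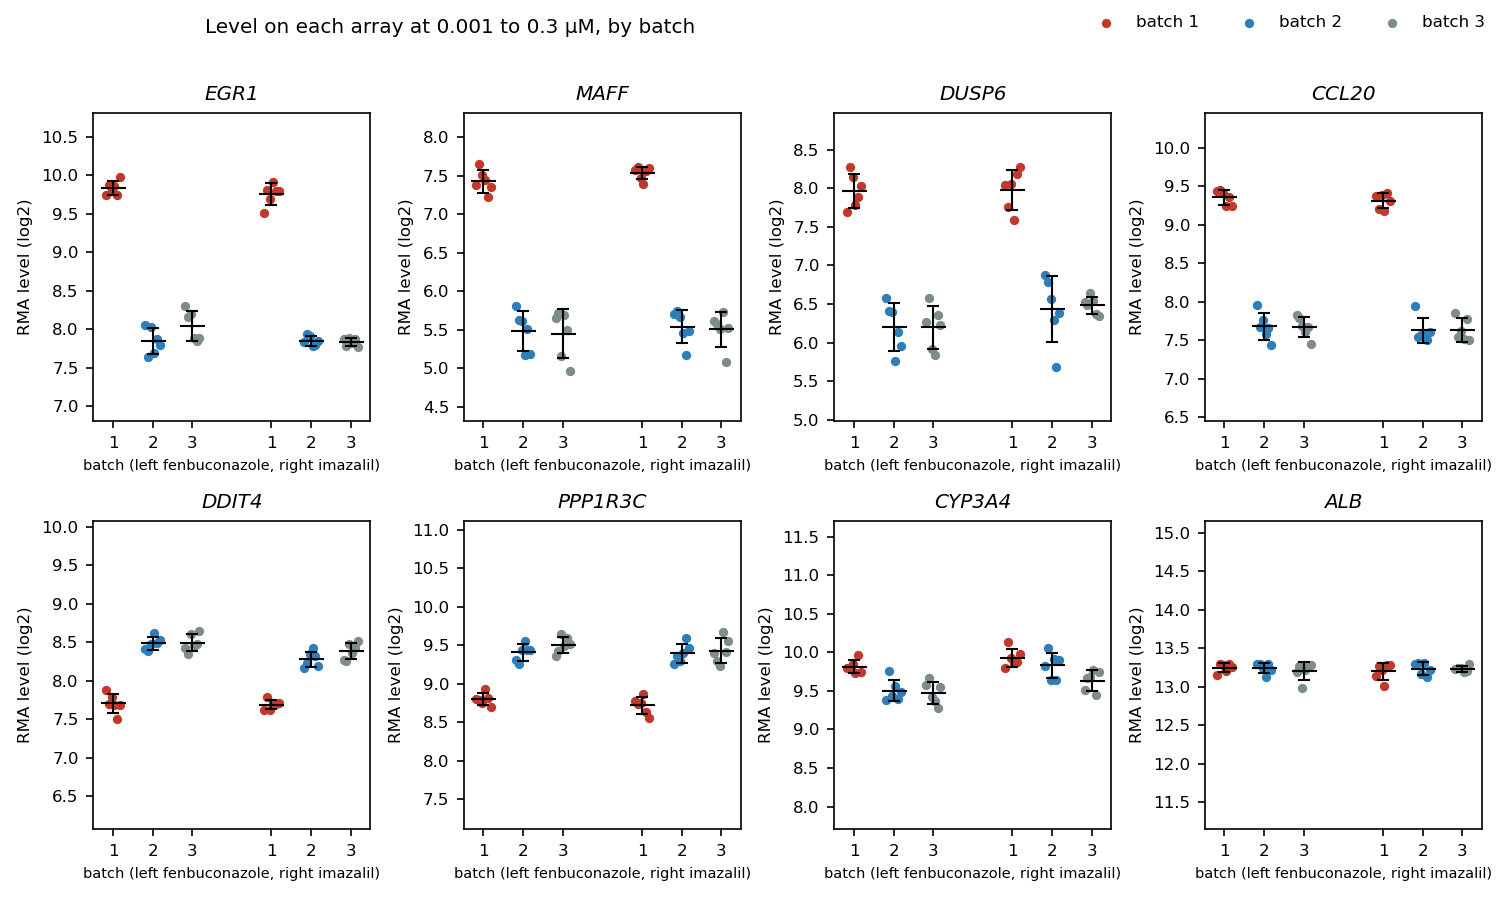
RMA level (y axis, log2) of 8 genes on each array at 0.001 to 0.3 µM, by batch (x axis, batches 1 to 3 of the fenbuconazole set at left and of the imazalil set at right), with 1 point per array and the black bar and whiskers as mean ± SD of 6 arrays. EGR1, MAFF, DUSP6 and CCL20 stood well above the other batches in batch 1, DDIT4 and PPP1R3C stood below, and ALB lay near 13.2 in all 6 groups.

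Some inhibitors that answer ERK signalling were higher in batch 1 as well. DUSP6 encodes the cytoplasmic phosphatase that inactivates ERK. DUSP6 lay at 7.70 to 8.28 (median 7.96) in batch 1, 5.76 to 6.58 (median 6.27) in batch 2 and 5.84 to 6.58 (median 6.24) in batch 3 of the fenbuconazole set. DUSP6 on the imazalil arrays lay at 7.59 to 8.27 (median 8.05) in batch 1, 5.68 to 6.88 (median 6.47) in batch 2 and 6.35 to 6.64 (median 6.51) in batch 3. Batch 1 did not overlap the others, although the imazalil arrays of batch 2 were the most spread of all. For DUSP6, batch 1 minus batch 2 was 1.76 ± 0.12 (SE) in the fenbuconazole set and 1.55 ± 0.15 in the imazalil set, with adjusted p of the F test 8.88e-08 and 7.43e-06 in the fenbuconazole and imazalil sets. With the poly-A spike level as a covariate its adjusted p was 0.252 in the weaker set, the one with the larger adjusted p, and its mean difference was 1.40, against 1.66 without the covariate. DUSP5, the nuclear ERK phosphatase, had 1.58 and 1.32 against batches 2 and 3. ERRFI1, a feedback inhibitor of the EGF receptor, had 0.57 and 0.57, and TRIB1, a pseudokinase scaffold that binds MEK and the ligase COP1, 1.34 and 1.31. Of 18 MAP kinase phosphatases, Sprouty, SPRED and related inhibitors, a list also chosen after values had been seen, 4 passed, DUSP1, DUSP5, DUSP6 and ERRFI1. SPRY4 had 0.30 and 0.31 and SPRY2 0.28 and 0.26, with adjusted p values of 0.284 and 0.393 in the weaker set.

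Chemokines and other NF-kB responsive genes formed the other large group. CCL20, the chemokine that binds CCR6, was among the genes with the smallest adjusted p. CCL20 lay at 9.24 to 9.46 (median 9.39) in batch 1, 7.44 to 7.96 (median 7.67) in batch 2 and 7.45 to 7.83 (median 7.68) in batch 3 of the fenbuconazole set. CCL20 on the imazalil arrays lay at 9.17 to 9.41 (median 9.35) in batch 1, 7.50 to 7.94 (median 7.58) in batch 2 and 7.50 to 7.86 (median 7.58) in batch 3. The lowest array of batch 1 was more than 1 log2 unit above the highest of the other batches. For CCL20, batch 1 minus batch 2 was 1.68 ± 0.056 (SE) in the fenbuconazole set and 1.68 ± 0.065 in the imazalil set, with adjusted p of the F test 6.38e-11 and 1.31e-10 in the fenbuconazole and imazalil sets. CXCL8, the neutrophil chemokine interleukin 8, was brighter and differed less. CXCL8 lay at 10.47 to 10.78 (median 10.74) in batch 1, 9.32 to 9.59 (median 9.45) in batch 2 and 9.28 to 9.61 (median 9.48) in batch 3 of the fenbuconazole set. CXCL8 on the imazalil arrays lay at 10.49 to 10.79 (median 10.61) in batch 1, 9.22 to 9.48 (median 9.36) in batch 2 and 9.34 to 9.55 (median 9.51) in batch 3. Batch 1 again had no array within the range of the others. For CXCL8, batch 1 minus batch 2 was 1.22 ± 0.077 (SE) in the fenbuconazole set and 1.25 ± 0.061 in the imazalil set, with adjusted p of the F test 7.08e-08 and 1.98e-09 in the fenbuconazole and imazalil sets.

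Of the 14 measured genes of the NF-kB and chemokine list, 9 passed in both sets, all higher in batch 1, and the median of the list was 0.76 for batch 1 minus batch 2 and 0.72 for batch 1 minus batch 3. Beside CCL20 and CXCL8 these were the chemokines CXCL1 (1.15 and 1.18), CXCL3 (0.96 and 0.92) and CCL2 (0.97 and 0.86), the cytokine IL6 (0.67 and 0.61), the adhesion molecule ICAM1 (0.86 and 0.82) and the pathway inhibitors TNFAIP3 (0.97 and 0.93) and NFKBIA (0.55 and 0.51). CXCL2, RELB and CXCL6 had smaller positive differences of 0.23, 0.19 and 0.10 against batch 2 and did not pass. Against batch 2 CXCL5 had -0.029 and IL1B -0.068, at levels below the median probe set. Outside the list, the NF-kB cofactor NFKBIZ had 0.85 and 0.85, ZC3H12A, an RNase that degrades cytokine mRNAs, 0.83 and 0.88, the cytokine LIF 0.97 and 0.91, and the interferon regulatory factor IRF1 0.77 and 0.69. The 17 measured interferon response genes held none that passed in both sets, with medians of -0.088 and -0.094. OAS1, an antiviral oligoadenylate synthetase, was lower in batch 1 than in batch 3 in both sets by a mean of 0.56 log2 units, and the F test missed in the weaker set (adjusted p = 0.0986). The 11 measured acute phase genes held none that passed either, and their medians were -0.045 and -0.024. In that list CRP, the C-reactive protein, was lower in batch 1 than in batch 3 in both sets, with a mean difference of -0.54 and an adjusted p of the F test of 0.0581 in the weaker set.

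The regions upstream of some of the genes that differed are shown, searched for sequence elements that immediate early and NF-kB responsive promoters are known for. Each window holds the 300 bases around a RefSeq start site, most of them before it, on build GRCh38.p14, written 5′ to 3′ along the gene. Capitals mark matches on either strand to the cAMP response element TGACGTCA, the AP-1 site TGANTCA, the CArG box of serum response factor or the NF-kB site. The CArG box was searched as CCWWWWWWGG and the NF-kB site as GGGRNWYYCC, where W is A or T, R is A or G and Y is C or T. Sites that depart from these letters are not marked, so a window without a match can still hold one. By these letters EGR1 has 2 CArG boxes, MAFF a cAMP response element in 1 of its 2 listed windows and CCL20 an NF-kB site. CXCL8 has an AP-1 site and no match to the NF-kB letters, and DDIT4, lower in batch 1, has no match.
EGR1 promoter, chr5:138465229-138465528, plus strand: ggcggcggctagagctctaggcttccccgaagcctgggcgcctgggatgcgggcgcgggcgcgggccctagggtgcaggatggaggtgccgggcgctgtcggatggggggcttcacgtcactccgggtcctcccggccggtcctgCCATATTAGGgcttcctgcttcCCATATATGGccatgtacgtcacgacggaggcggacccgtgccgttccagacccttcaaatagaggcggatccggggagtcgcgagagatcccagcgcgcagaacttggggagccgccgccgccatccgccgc
MAFF promoter, chr22:38201744-38202043, plus strand: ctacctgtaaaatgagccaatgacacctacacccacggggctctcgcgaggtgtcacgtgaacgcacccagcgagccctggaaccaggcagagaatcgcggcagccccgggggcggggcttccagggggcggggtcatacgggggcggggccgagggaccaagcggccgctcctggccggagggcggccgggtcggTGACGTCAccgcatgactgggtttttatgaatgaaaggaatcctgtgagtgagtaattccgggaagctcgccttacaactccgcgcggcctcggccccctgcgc
CCL20 promoter, chr2:227813592-227813891, plus strand: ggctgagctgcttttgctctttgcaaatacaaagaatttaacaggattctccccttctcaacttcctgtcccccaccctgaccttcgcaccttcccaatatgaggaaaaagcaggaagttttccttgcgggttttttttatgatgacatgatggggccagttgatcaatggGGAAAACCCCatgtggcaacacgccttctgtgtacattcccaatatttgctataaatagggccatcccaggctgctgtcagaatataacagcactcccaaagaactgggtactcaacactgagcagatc
CXCL8 promoter, chr4:73740319-73740618, plus strand: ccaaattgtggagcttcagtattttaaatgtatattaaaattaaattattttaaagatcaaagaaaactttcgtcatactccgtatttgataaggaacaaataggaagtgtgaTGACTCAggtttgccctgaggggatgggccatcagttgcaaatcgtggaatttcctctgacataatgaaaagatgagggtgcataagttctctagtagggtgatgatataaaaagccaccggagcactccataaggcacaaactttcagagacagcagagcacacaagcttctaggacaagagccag
DDIT4 promoter, chr10:72273674-72273973, plus strand: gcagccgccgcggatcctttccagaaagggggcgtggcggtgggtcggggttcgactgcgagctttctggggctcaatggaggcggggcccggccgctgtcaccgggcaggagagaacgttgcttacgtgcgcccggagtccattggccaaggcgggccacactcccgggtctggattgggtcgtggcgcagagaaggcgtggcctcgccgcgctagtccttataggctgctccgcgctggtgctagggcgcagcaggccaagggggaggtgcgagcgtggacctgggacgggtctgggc
Windows were listed for 89 of the 113 genes higher in batch 1, 130 windows in all, and for 24 of the 29 lower in batch 1, 39 windows. A cAMP response element was found in 6.92% of the windows of the higher genes, in 0 of the 39 of the lower genes and in 2.34% of the 21547 windows of all tested genes. A CArG box was found in 5.38%, 0 windows and 1.23%, in the same order, and an NF-kB site in 16.2%, 0 windows and 6.55%. An AP-1 site was found in 6.92%, 7.69% and 6.21%. Any of these elements was found in 34.6%, 7.69% and 15.6%, so most windows of the higher genes held none. Windows of a gene can overlap, and a match is a run of letters and not a measured site.

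Some stress and growth arrest genes were higher in batch 1. GDF15, a stress cytokine of the TGF-beta family, was the one gene that passed of the 10 measured on the list of p53 targets. That list did not hold GADD45A, PMAIP1, PLK2 or TP53INP1, which passed and belong to the family list below, so it does not speak for p53 targets at large. GDF15 lay at 9.41 to 9.72 (median 9.65) in batch 1, 7.91 to 8.20 (median 8.09) in batch 2 and 7.89 to 8.22 (median 8.10) in batch 3 of the fenbuconazole set. GDF15 on the imazalil arrays lay at 9.51 to 9.77 (median 9.67) in batch 1, 8.09 to 8.34 (median 8.18) in batch 2 and 8.05 to 8.27 (median 8.10) in batch 3. The 6 arrays of batch 1 again lay above all 12 others in each set. For GDF15, batch 1 minus batch 2 was 1.54 ± 0.08 (SE) in the fenbuconazole set and 1.46 ± 0.061 in the imazalil set, with adjusted p of the F test 1.2e-08 and 1.99e-10 in the fenbuconazole and imazalil sets. In a small family list made after values had been seen, 6 of 9 genes passed. GADD45B, which links stress to p38 and JNK, had 0.71 and 0.65, and GADD45A 0.39 and 0.34. PPP1R15A, which directs the dephosphorylation of eIF2 alpha, had 0.74 and 0.76, PMAIP1, a pro-apoptotic BH3-only protein, 0.67 and 0.72, and PLK2, a Polo-like kinase, 0.56 and 0.50. The list of 11 heat shock genes held no gene that passed and had medians of -0.013 and 0.021, and the 13 NRF2 targets held none, with 0.047 and 0.10.

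Some genes of growth factors and matrix-linked proteins with rapid transcription had the same direction. CCN2, a matricellular protein also called connective tissue growth factor, is a standard target of YAP and of TGF-beta. CCN2 lay at 10.45 to 10.61 (median 10.55) in batch 1, 9.38 to 9.86 (median 9.53) in batch 2 and 9.43 to 9.84 (median 9.63) in batch 3 of the fenbuconazole set. CCN2 on the imazalil arrays lay at 10.47 to 10.62 (median 10.56) in batch 1, 9.57 to 9.80 (median 9.66) in batch 2 and 9.55 to 9.77 (median 9.66) in batch 3. Batch 1 did not overlap the others. For CCN2, batch 1 minus batch 2 was 0.99 ± 0.07 (SE) in the fenbuconazole set and 0.87 ± 0.049 in the imazalil set, with adjusted p of the F test 4.15e-07 and 4.78e-09 in the fenbuconazole and imazalil sets. Of 14 measured YAP and TGF-beta responsive genes, 5 passed, all higher in batch 1, with list medians of 0.15 for batch 1 minus batch 2 and 0.19 for batch 1 minus batch 3. The others that passed were CCN1 (0.93 and 0.88), AMOTL2, an angiomotin that binds YAP (0.52 and 0.51), and the helix-loop-helix inhibitors ID1 (0.66 and 0.63) and ID2 (0.42 and 0.40). ANKRD1, another YAP target, had 0.31 and 0.30 with an adjusted p of 0.231 in the weaker set, while AXL, TGFBI and SMAD7 lay between -0.064 and -0.026 against batch 2. Endothelin 1, the vasoconstrictor peptide encoded by EDN1, had 1.36 and 1.38, tissue factor, the starter of coagulation encoded by F3, 0.50 and 0.49, and the ligand EFNA1 0.47 and 0.50 with its receptor EPHA2 0.73 and 0.78.

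Few regulators of hepatic metabolism passed, and the largest difference among them was that of NR0B2. NR0B2 encodes SHP, the orphan receptor through which bile acids repress their own synthesis. NR0B2 lay at 5.97 to 6.40 (median 6.21) in batch 1, 4.03 to 4.93 (median 4.73) in batch 2 and 4.28 to 4.93 (median 4.77) in batch 3 of the fenbuconazole set. NR0B2 on the imazalil arrays lay at 5.90 to 6.53 (median 6.08) in batch 1, 4.37 to 4.85 (median 4.66) in batch 2 and 4.44 to 4.82 (median 4.59) in batch 3. Batch 1 did not overlap the others in either set. For NR0B2, batch 1 minus batch 2 was 1.59 ± 0.10 (SE) in the fenbuconazole set and 1.52 ± 0.10 in the imazalil set, with adjusted p of the F test 5.42e-08 and 6.97e-08 in the fenbuconazole and imazalil sets. NR0B2 was the one gene of 15 measured nuclear receptors and hepatocyte factors that passed, and the 12 genes of bile acid synthesis held none, with medians of -0.032 and -0.089. The largest difference among the 12 was that of CYP7A1, the rate-limiting enzyme of the pathway, with -0.55 and -0.52 and an adjusted p of 0.129 in the weaker set. SIK1, the salt-inducible kinase that restrains cAMP-driven gluconeogenic transcription, had 1.56 and 1.51. The other probe set of SIK1 was dimmer, at 4.08 and 4.17 in the fenbuconazole and imazalil sets. It had batch 1 minus batch 2 of -0.046 and 0.039, with adjusted p of the F test 0.956 and 0.891. SLC25A25, a calcium-regulated mitochondrial ATP carrier, had 0.91 and 0.99, and IRS2, the main insulin receptor substrate of liver, 0.38 and 0.41. ABCC2, the canalicular efflux pump MRP2, passed through batch 3 more than batch 2, with 0.22 and 0.33, and it lost the call when any of 5 of the 6 concentrations was left out.

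Glucocorticoid responsive genes did not move together. Of 12 measured targets of the receptor, 5 passed, 4 higher and 1 lower in batch 1, and PER1, DUSP1 and ERRFI1 of them are also early response genes. PER1, a clock gene, had 0.77 and 0.72 and SGK1, a kinase of ion transport, 0.48 and 0.44. TSC22D3, the glucocorticoid-induced leucine zipper, went the other way. TSC22D3 lay at 9.71 to 9.90 (median 9.77) in batch 1, 10.17 to 10.30 (median 10.19) in batch 2 and 10.15 to 10.39 (median 10.23) in batch 3 of the fenbuconazole set. TSC22D3 on the imazalil arrays lay at 9.71 to 9.87 (median 9.78) in batch 1, 10.16 to 10.32 (median 10.21) in batch 2 and 10.07 to 10.28 (median 10.20) in batch 3. Every array of batch 1 lay below every array of the other batches. For TSC22D3, batch 1 minus batch 2 was -0.42 ± 0.057 (SE) in the fenbuconazole set and -0.43 ± 0.056 in the imazalil set, with adjusted p of the F test 0.000355 and 0.000312 in the fenbuconazole and imazalil sets. FKBP5, a glucocorticoid target that is bright in these cells, had 0.00032 and 0.047, and TAT -0.15 and -0.15. Of 16 clock genes only PER1 and BHLHE40 passed, and the core genes CLOCK and BMAL1 had 0.079 and 0.0073 against batch 2.

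Genes of RNA handling were found on both sides. The splicing factors SRSF5 (0.53 and 0.57) and SRSF6 (0.41 and 0.57) and cyclin L1, encoded by CCNL1 (0.88 and 0.93), were higher in batch 1. CLK4, a kinase of such splicing factors, was lower (-0.57 and -0.61), although it lost the call when all its probe sets were averaged (difference -0.19, adjusted p = 0.0873). The other 14 genes of the list of splicing factors and their kinases did not pass. CIRBP, the cold-inducible RNA-binding protein, had 0.35 and 0.33 on its chosen probe set, but its other probe sets did not give 1 direction. A dimmer one (level 5.12 and 5.34 in the fenbuconazole and imazalil sets) had batch 1 minus batch 2 of -0.62 and -0.44, with adjusted p of 0.0931 and 0.0362 by limma. The transcript of MIR21, an abundant microRNA gene, had 0.54 and 0.49, and VMP1, whose transcription unit overlaps it, 0.44 and 0.47.

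The 29 genes lower in batch 1 had a median batch 1 minus batch 3 of -0.44, and the 113 higher genes 0.59. DDIT4, also called REDD1, inhibits mTORC1 and responds to glucocorticoids, hypoxia and stress. DDIT4 lay at 7.50 to 7.88 (median 7.69) in batch 1, 8.38 to 8.62 (median 8.48) in batch 2 and 8.35 to 8.64 (median 8.46) in batch 3 of the fenbuconazole set. DDIT4 on the imazalil arrays lay at 7.62 to 7.78 (median 7.70) in batch 1, 8.17 to 8.42 (median 8.27) in batch 2 and 8.26 to 8.52 (median 8.39) in batch 3. All arrays of batch 1 were below all others. For DDIT4, batch 1 minus batch 2 was -0.78 ± 0.07 (SE) in the fenbuconazole set and -0.59 ± 0.062 in the imazalil set, with adjusted p of the F test 3.64e-06 and 5.59e-06 in the fenbuconazole and imazalil sets. PPP1R3C, a glycogen-targeting subunit of protein phosphatase 1, gave a like pattern. PPP1R3C lay at 8.70 to 8.94 (median 8.80) in batch 1, 9.26 to 9.56 (median 9.44) in batch 2 and 9.37 to 9.65 (median 9.51) in batch 3 of the fenbuconazole set. PPP1R3C on the imazalil arrays lay at 8.56 to 8.87 (median 8.75) in batch 1, 9.25 to 9.60 (median 9.38) in batch 2 and 9.24 to 9.67 (median 9.41) in batch 3. Batch 1 did not overlap the others here either. For PPP1R3C, batch 1 minus batch 2 was -0.61 ± 0.061 (SE) in the fenbuconazole set and -0.67 ± 0.076 in the imazalil set, with adjusted p of the F test 5.48e-06 and 3.43e-05 in the fenbuconazole and imazalil sets. HHEX, a homeobox factor of liver development, had -0.42 and -0.53, and INHBE, the liver-enriched activin beta E subunit, -0.43 and -0.58. AMMECR1L, whose role is little known, had -0.43 and -0.48, and RGCC, a regulator of the cell cycle, -0.25 and -0.61. INHBE lost the call without 0.1 or 0.3 µM and when all concentrations were used. The proteoglycan decorin, encoded by DCN, had -0.33 and -0.45, and S100A8 and S100A9, which together form calprotectin, -0.19 and -0.42 for the first and -0.22 and -0.34 for the second. The other probe set of S100A8 had batch 1 minus batch 3 of -0.24 and -0.071 in the fenbuconazole and imazalil sets. Its adjusted p of the F test was 0.395 and 0.851. DCN lost the call without 0.003, 0.01, 0.1 or 0.3 µM.

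Of 532 measured genes with ZNF, ZSCAN or ZKSCAN symbols, which encode zinc finger proteins mostly of unknown targets, 9 passed (1.69%, beside 0.718% of all genes), 8 of them lower in batch 1. ZNF567 had -0.76 and -0.74, ZKSCAN4 -0.65 and -0.71, ZNF786 -0.51 and -0.67 and ZNF2 -0.53 and -0.38, and ZNF408 was the one that was higher (0.36 and 0.40). The median of all 532 was -0.023 and -0.034. Some of these calls were lost with 1 concentration left out: ZNF567 without 0.03 µM (adjusted p = 0.0577), ZNF786 without 0.003, 0.01, 0.1 or 0.3 µM, and ZNF573 when any of these was left out or its probe sets were averaged.

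**Figure D3:**
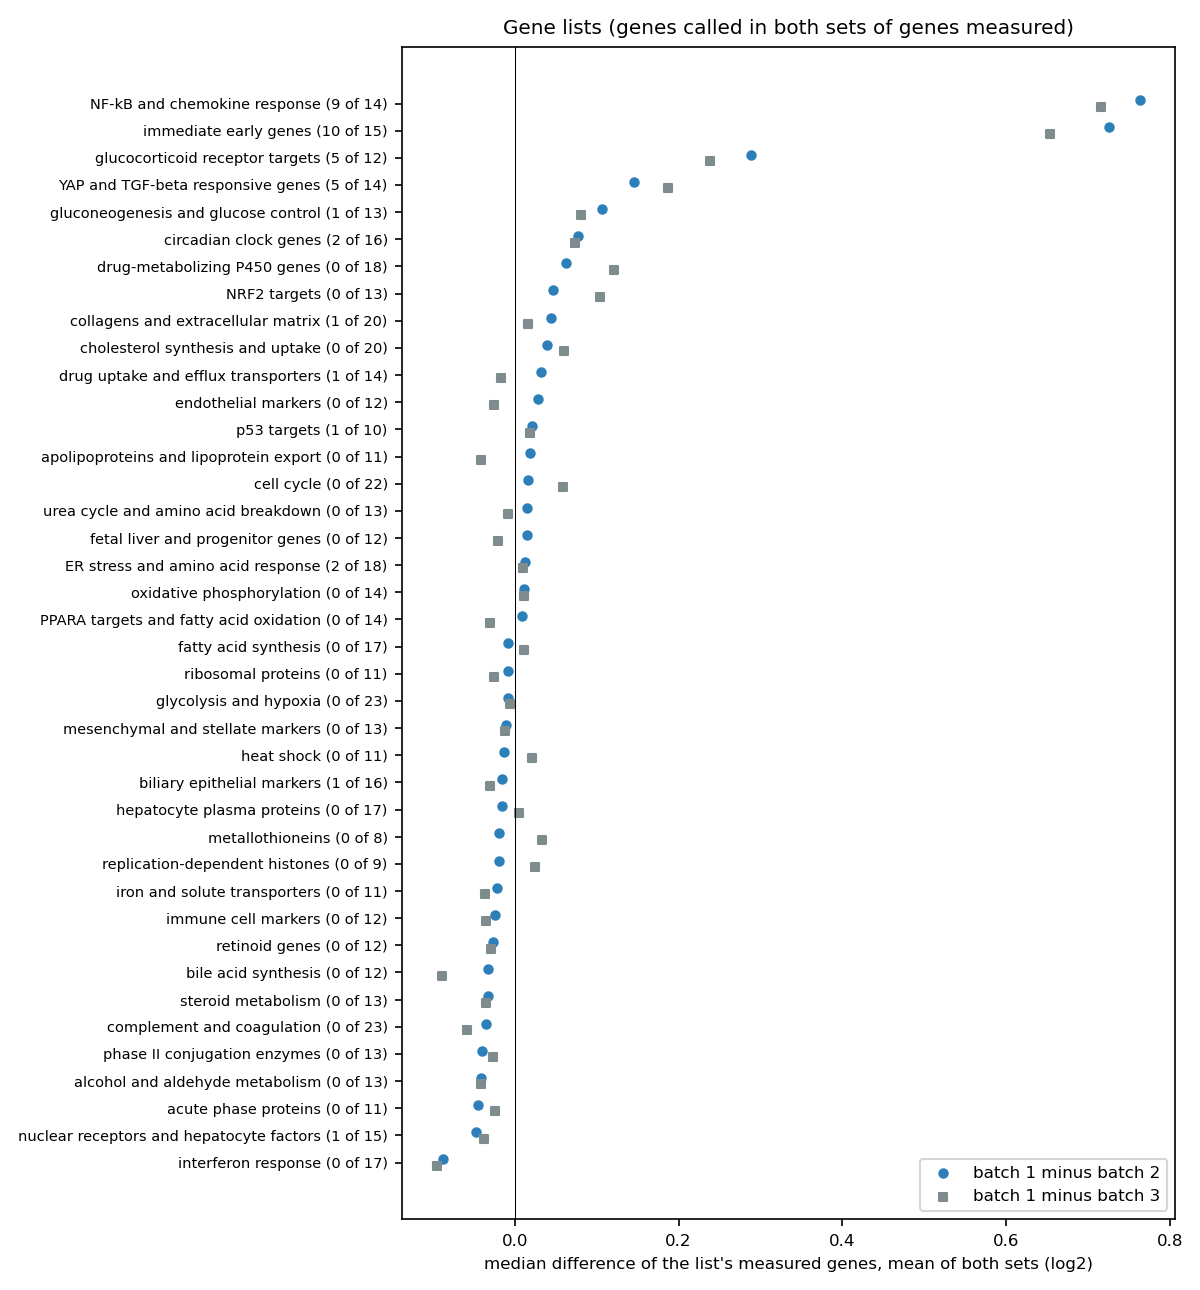
Median batch difference (x axis, log2, mean of both sets) of the measured genes of 40 lists (y axis), as circles for batch 1 minus batch 2 and squares for batch 1 minus batch 3, with the number of genes that passed in both sets in brackets. The NF-kB and chemokine list and the immediate early list stood at 0.65 to 0.76, glucocorticoid targets and YAP and TGF-beta responsive genes at 0.15 to 0.29, and all other lists within about 0.12 of 0.

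Few hepatocyte genes differed between the 3 batches. ALB lay at 13.15 to 13.29 (median 13.27) in batch 1, 13.12 to 13.29 (median 13.27) in batch 2 and 12.99 to 13.29 (median 13.24) in batch 3 of the fenbuconazole set. ALB on the imazalil arrays lay at 13.01 to 13.28 (median 13.24) in batch 1, 13.12 to 13.31 (median 13.25) in batch 2 and 13.19 to 13.29 (median 13.23) in batch 3. The ranges of the 3 batches of ALB, the plasma carrier protein and leading hepatocyte marker, overlapped. The mean level of the 17 plasma protein genes ran over 12.18 to 12.32, 12.23 to 12.30 and 12.19 to 12.30 in batches 1, 2 and 3 of the fenbuconazole set. Of the 40 lists, 28 held no gene that passed in both sets, among them apolipoproteins, P450 genes, phase II enzymes, cholesterol and fatty acid synthesis, fatty acid oxidation, the urea cycle, complement and coagulation, ribosomal proteins and the cell cycle. CYP3A4, the main drug-metabolizing P450 of liver, was the one P450 gene with a pair of batches that passed in both sets. CYP3A4 lay at 9.74 to 9.96 (median 9.80) in batch 1, 9.39 to 9.76 (median 9.46) in batch 2 and 9.28 to 9.67 (median 9.48) in batch 3 of the fenbuconazole set. CYP3A4 on the imazalil arrays lay at 9.80 to 10.13 (median 9.90) in batch 1, 9.64 to 10.06 (median 9.87) in batch 2 and 9.44 to 9.77 (median 9.67) in batch 3. The batches of CYP3A4 overlapped less in the fenbuconazole set. Batch 1 minus batch 3 of CYP3A4 was 0.34 ± 0.076 (SE) and 0.29 ± 0.065 and passed in both sets, whereas its F test had an adjusted p of 0.0791 in the weaker set. The F test of CYP3A4 passed in both sets under 3 alternatives, with adjusted p of 0.0481 over bright genes alone, 0.00533 with a trend in the prior variance and 0.0316 with all concentrations. CYP1A1, CYP1A2 and CYP2B6, the P450 genes used as readouts of AHR and CAR, had batch 1 minus batch 2 of -0.042, 0.24 and 0.092 and did not pass.

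Markers of other cells were at close levels in the 3 batches. The mean level of 16 biliary epithelial markers had medians of 5.73, 5.71 and 5.74 in batches 1, 2 and 3 of the fenbuconazole set and 5.70, 5.67 and 5.73 in the imazalil set. SOX9, a biliary and progenitor factor that is also quickly inducible, was the one of them that passed. SOX9 lay at 6.01 to 6.36 (median 6.24) in batch 1, 5.24 to 5.71 (median 5.37) in batch 2 and 5.16 to 5.54 (median 5.40) in batch 3 of the fenbuconazole set. SOX9 on the imazalil arrays lay at 6.06 to 6.38 (median 6.19) in batch 1, 5.18 to 5.76 (median 5.50) in batch 2 and 5.29 to 5.52 (median 5.46) in batch 3. Batch 1 lay apart for SOX9, with adjusted p of the F test 5.48e-06 and 1.12e-05 in the fenbuconazole and imazalil sets, while KRT19, a biliary keratin, had -0.089 and -0.16. The 13 mesenchymal, 12 endothelial and 12 immune markers held none that passed, and 4 genes of each list lay above the median of all probe sets.

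Batch 3 rather than batch 1 was apart for 9 of the 142 genes, those in which batch 2 minus batch 3 exceeded batch 1 minus batch 2 in size. PDE3B, a phosphodiesterase through which insulin lowers cAMP, had 0.10 for batch 1 minus batch 2, 0.44 for batch 1 minus batch 3 and 0.34 for batch 2 minus batch 3. NNT, the mitochondrial transhydrogenase that makes NADPH, had 0.18, 0.42 and 0.23, in the same order. TNFRSF11B, osteoprotegerin, a decoy receptor of RANKL, had -0.16, -0.44 and -0.28. With all its probe sets averaged TNFRSF11B lost the call (batch 1 minus batch 3 of -0.30, adjusted p = 0.234), and its other probe set had -0.093 and -0.24 in the fenbuconazole and imazalil sets. A second bright probe set of NNT had 0.23 and 0.061 for batch 1 minus batch 3, with adjusted p of the F test 0.479 and 0.886, in the same order. No other probe set of NNT or PDE3B passed in either set. The other 6 were ABCC9, ATAD2, CKAP5, RGCC, S100A8 and ZNF573, and in none of the 9 did batch 2 minus batch 3 pass. Just inside the threshold lay ZNF2, GEM and MSANTD4, with adjusted p values of 0.0478, 0.0487 and 0.0499 in the weaker set, and just outside lay FAM200C, ZNF165 and THSD7A, with 0.0513, 0.0542 and 0.0552.

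The separation of the batches was complete for many of the genes. In 88 of the 142, the 6 arrays of batch 1 lay outside all 12 others on the same side in both sets, 80 above and 8 below, beside 93 such genes of 19774 in all (0.470%). The rule and these counts use the same arrays, so the count is a description. The F test over the 6 concentrations passed for 0 genes in the fenbuconazole set (792 at an unadjusted p under 0.05) and for 1 gene, RABEP2, in the imazalil set (1148), which was not among the 142. The test of whether batch differences themselves differed between the sets passed for 0 of 19774 genes in limma (910 at an unadjusted p under 0.05, 6 of them among the 142).

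Where a gene had other probe sets of its own symbol, these could be set beside the one chosen. There were 160 such probe sets for 85 of the 142 genes, 113 of them brighter than the median probe set. Of the 113, 93 had the direction of the chosen probe set in both sets and against both batches, and 47 passed in both sets. Over all 54715 probe sets, 310 passed in both sets, 28 of them without a single gene symbol, and no control probe set was among them.

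The 2,4-D arrays of the same batches, which the rule did not use, measured the same genes in 18 other wells. By the P code, 430 of 19774 genes passed the F test in that set (2.17%). Of the 142 genes, 129 passed there with the direction they had in the other sets, and 141 had that direction. In 94 of the 142, the batch 1 arrays lay outside the other 12 in that direction, beside 0.829% of all genes in either direction. EGR1 averaged 9.85, 7.94 and 8.12 in batches 1, 2 and 3 of the 2,4-D set, and batch 1 minus batch 2 was 1.91 ± 0.067 (SE) with an adjusted p of 1.46e-10. DDIT4 had -0.78 ± 0.065. Batch took a median of 80.7% of the variance between arrays of the 142 genes there, against 12.6% for all genes. Without any batch difference the mean share would be 11.8%, which is a mean and not a median, so the 12.6% cannot be read against it. The poly-A spikes averaged 5.30 ± 0.14, 5.50 ± 0.23 and 5.18 ± 0.08 in batches 1, 2 and 3 of the 2,4-D set, so they were not highest in batch 1. The 13 genes that did not pass were ABCC9, CD3D, GEM, KLF7, MTRFR, NR4A2, S100A9, TSKU, VMP1, XRN1, ZKSCAN4, ZNF264 and ZSCAN2, and ABCC9 had the other direction. The 0.001 and 0.003 µM arrays of batch 2 share a sample code in their descriptions, and both were used. Without these 2 concentrations, 199 of all genes passed the F test in that set and 99 of the 142. These values depend on the P code. The number in the title of the 2,4-D samples differs from it for 13 of the 18 arrays, and when batches were taken from that number, 0 of the 142 genes and 0 of all genes passed.

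**Figure D4:**
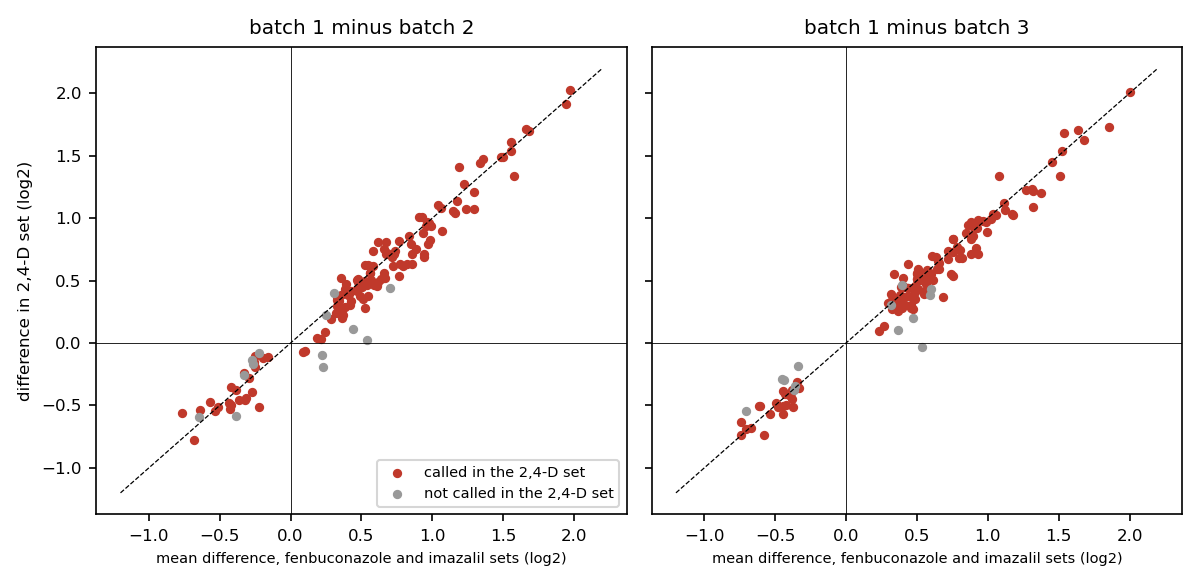
Difference between batches in the 2,4-D set by P code (y axis, log2) against the mean difference of the fenbuconazole and imazalil sets (x axis, log2), for batch 1 minus batch 2 (left) and batch 1 minus batch 3 (right), 1 point for each of the 142 genes, with the dashed line as equality. The points lie along the line, and the 13 grey points, genes that did not pass in the 2,4-D set, all lie at differences under 1.

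The arrays at 1, 3 and 10 µM and the DMSO arrays, also unused by the rule, carried the same separation. At the 3 higher concentrations, the 3 arrays of batch 1 lay outside the 6 others in the direction of the rule for 101 of the 142 genes with fenbuconazole and 103 with imazalil. Over all genes such a separation in either direction was found for 4.60% and 6.28%. The DMSO array of batch 1 lay beyond those of batches 2 and 3 for 129 of the 142, where 62.2% of all genes have batch 1 at an end. These 3 DMSO arrays are shared by all sets. In the fenbuconazole normalization EGR1 stood at 9.76, 7.88 and 7.93 on the DMSO arrays of batches 1, 2 and 3. CCL20 stood at 9.31, 7.50 and 7.72, so batch 1 was high without any chemical. When all 30 columns of each set entered the fit, 407 genes passed in both sets, 141 of the 142 among them. That fit holds the 18 arrays of each set that the rule used, so this overlap is a description and not a check on unused arrays.

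**Figure D5:**
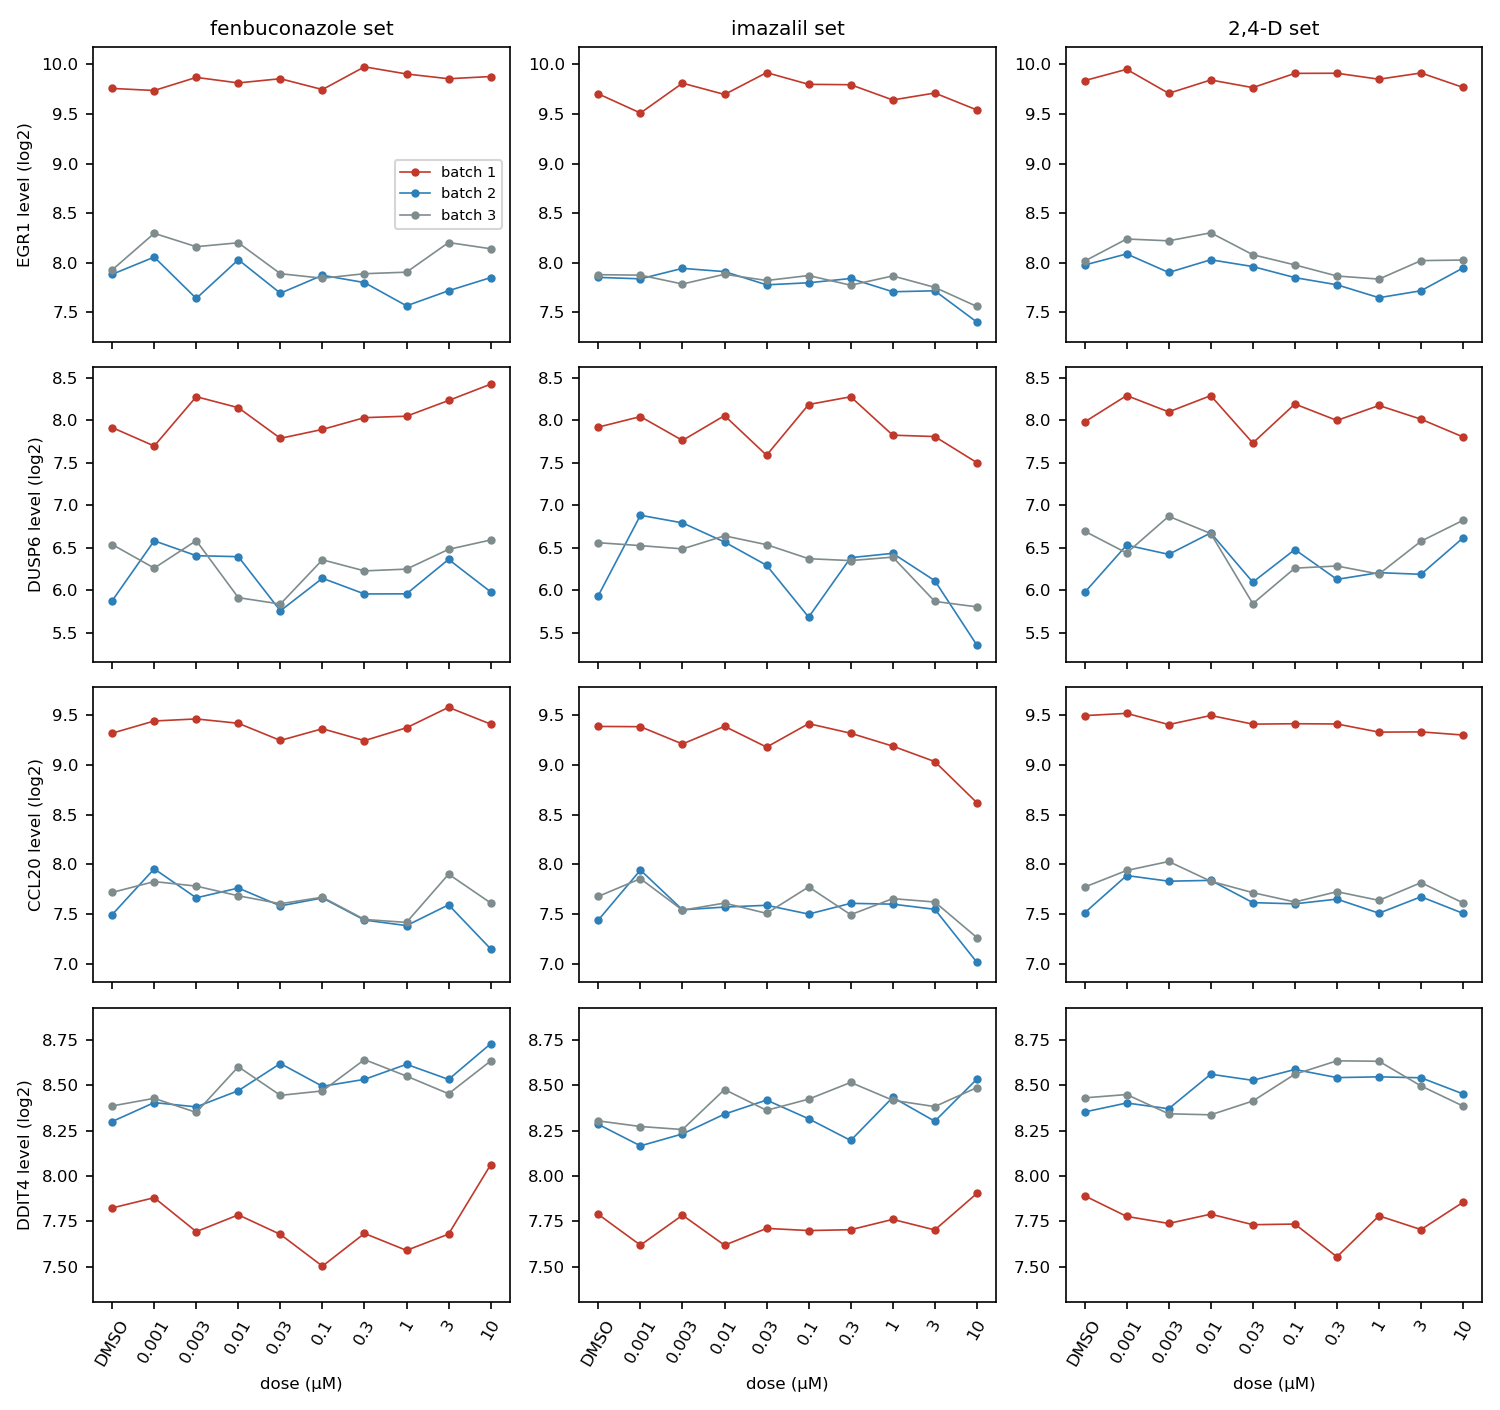
RMA level (y axis, log2) of EGR1, DUSP6, CCL20 and DDIT4 over concentration (x axis, DMSO and then 0.001 to 10 µM in order) in the fenbuconazole, imazalil and 2,4-D sets, 1 line per batch and 1 array per point. The line of batch 1 runs above the others for EGR1, DUSP6 and CCL20 and below them for DDIT4 at every concentration and in DMSO, and the 3 DMSO arrays are the same in the 3 columns.

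The response to 10 µM was set beside these baselines, with 1 array per batch, chemical and concentration and hence no test. CYP3A4 exceeded the mean of the 6 low concentrations of its batch by 2.42, 2.43 and 2.63 log2 units in batches 1, 2 and 3 with fenbuconazole. With imazalil the excess was 2.75, 2.61 and 3.00. CYP1A1, the classic AHR target, lay at 2.69 to 2.97 at low concentrations, about the median of all probe sets, so its excess is a lower bound and only its levels at 10 µM are given. They were 4.95, 5.91 and 4.72 in batches 1, 2 and 3 with fenbuconazole and 8.41, 8.79 and 7.65 with imazalil. CYP2B6, the classic CAR target, exceeded it by 2.40, 0.745 and 2.37 with fenbuconazole and by 3.46, 2.89 and 3.59 with imazalil, least in batch 2 with both. INHBE, itself lower in batch 1 at low concentrations, differed from its low mean by -0.95, -2.88 and -1.55 with fenbuconazole and by -1.34, -2.16 and -1.34 with imazalil. For EGR1 the 10 µM arrays differed from the low mean by 0.045, 0.00099 and 0.094 with fenbuconazole and by -0.21, -0.45 and -0.28 with imazalil. These shifts of EGR1 were smaller than the difference of batch 1 from the other batches.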

How the data were processed

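Total RNA was labelled with a 3′ IVT kit and hybridised to HT HG-U133+ PM plates of Affymetrix. The authors deposited log2 values from RMA, which had been run chemical by chemical, each time with the 3 DMSO arrays of the study. RMA and Partek are named in the submitters' processing notes without a version. Arrays give no counts, and their number sets the precision. RMA equalizes the arrays of a set, so a shift of all genes in a batch could not be seen.

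Of 54715 probe sets, 40920 carried 1 gene symbol in the platform annotation, 864 several and 12931 none. Each of 19774 genes was taken from the brightest of its probe sets with 1 symbol over the 36 arrays. limma 3.58.1 in R 4.3.3 fitted batch with concentration as a block to the 18 arrays of each set (10 residual degrees of freedom before moderation). Adjusted p values are Benjamini-Hochberg values over all genes, with a threshold of 0.05. The fit was tested on simulated data. Replicates were described by the study as separate experiments on separate batches of cells. Named genes were the 8 largest differences in each direction per pair of batches without overlap of the arrays, up to 4 genes per list, and CYP1A1, CYP1A2, CYP2B6, CYP3A4 and ALB. Any other gene in the text was picked with its values in view. The genes, the 40 lists and 7 added lists were chosen with earlier results of these data known. The result of 1 added list is not reported here. Promoter windows are RefSeq's on GRCh38.p14. Alternatives were another concentration term or none, averaged probe sets, only bright genes, centred arrays, a trend in the prior variance, a minimum difference, all concentrations, 1 joint fit, a spike covariate, and each concentration left out.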

Additional observations from a re-analysis of the deposited data

Results flagged for a closer look

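Among the named genes, 387 groups of 6 arrays of 1 batch in 1 set were searched for an array far from the other 5. In 19 of them the gap to the nearest array, divided by the range of the group, was above Dixon's critical value at the 95% level, where chance gives about 19.35, or 1 in 20 groups. The 19 values concern 15 genes.

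In the fenbuconazole set, AMOTL2 stood high at 8.68 in batch 1 (0.003 µM, next array 8.50), while INHBE stood low there at 7.00 (0.001 µM, next 7.48). SGK1 stood low at 8.14 in batch 1 (0.3 µM, next 8.22), and ZNF567 at 2.64 (0.001 µM, next 3.41). ALB was at 12.99 on 1 array of batch 3 (0.01 µM, next 13.19).

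In the imazalil set, CCL20 stood high at 7.94 in batch 2 (0.001 µM, next 7.61), and ID1 at 9.67 in batch 3 (0.001 µM, next 9.42). CXCL8 stood low at 9.34 in batch 3 (0.3 µM, next 9.48). MAFF at 5.08 (next 5.50) and ZNF567 at 3.63 (next 4.05) stood low in batch 3 at 0.1 µM, as did OMD, an extracellular matrix proteoglycan, at 5.30 (next 5.71) in batch 2 at that concentration.

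In the 2,4-D set, DDIT4 at 7.55 (next 7.73) and SOX9 at 5.88 (next 6.23) stood low in batch 1 at 0.3 µM. TNFRSF11B stood high at 9.09 in batch 1 (0.003 µM, next 8.90). ZNF573 stood low on the 0.03 µM arrays of batch 1, at 4.70 (next 5.21), and of batch 3, at 5.43 (next 5.72), and ALB at 13.08 (next 13.20) in batch 1 at that concentration. SGK1 stood low at 7.68 in batch 3 (0.1 µM, next 7.90), and CYP1A1 high at 3.01 in batch 3 (0.01 µM).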

How the results depend on the processing

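Without concentration as a block (no replicate block), 165 genes differed between batches in both sets, 135 of the 142 among them. With an added minimum difference of 0.5, there were 77 in both sets, 69 for batch 1 minus batch 2, 72 for batch 1 minus batch 3, 117 in the fenbuconazole set and 100 in the imazalil set. With all 9 concentrations and DMSO these counts were 407, 200, 536, 697 and 783, while 107 and 158 genes differed between concentrations in the fenbuconazole and imazalil sets and 1 gene had batch differences that differed between sets. With the poly-A spike covariate, chosen after seeing the data, the counts were 34 in both sets, 39 for batch 1 minus batch 2, 48 for batch 1 minus batch 3 and 37 in the imazalil set. A trend in the prior variance gave 242 for batch 1 minus batch 3, and 1 fit of the 36 arrays of both sets gave 1486 genes, all 142 among them. The 1 imazalil gene that differed between concentrations was 0 with averaged probe sets, centred arrays, the trend or any concentration left out, and averaging gave 3 genes whose batch differences differed between sets. Leaving out each concentration in turn gave 95 to 115 genes in both sets, 90 to 103 for batch 1 minus batch 2, 102 to 124 for batch 1 minus batch 3, 0 to 0 for batch 2 minus batch 3, 133 to 231 in the fenbuconazole set, 140 to 202 in the imazalil set, 108 to 120 that also differed in the 2,4-D set, 0 to 0 for imazalil concentrations and 0 to 1 for differences between sets. The lowest counts came without 0.1 µM for batch 1 minus batch 3 and the fenbuconazole set, and without 0.01 µM for the imazalil set. By the number in the title, 0 of the 142 differed in the 2,4-D set. The 43 named genes gave 644 results over the settings, of which the joint fit and the checks within the 2,4-D set alone gave none. Of the 644, 594 kept direction and side of the threshold, 46 lost the call, 4 gained it and 0 changed direction. The 43 results with the minimum difference are among the 594 and could not change, because that setting altered neither a gene's difference nor its adjusted p. The causes were not tested. Genes below the median probe set are limited by array background.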
